A study of Mus musculus with 8 samples.

Results

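The neuronal tubulin and neurofilament genes described here are 10 genes chosen by name: the tubulins Tuba1a, Tubb3 and Tubb5, the microtubule-associated proteins Map1b, Map2 and Mapt, the neurofilament subunits Nefl and Nefm, the tubulin-binding protein Stmn1 and the growth cone protein Gap43. Of these, 9 had a probe annotated to exactly 1 gene, 1 probe each, among 13840 genes so named on an array of 33012 probes. No probe named Mapt, which encodes tau, so tau was not analysed here. Transcripts were measured in whole hypothalamus of male C57BL/6J mice, which are genetically alike. The high gainers were 20 mice with a high weight gain and the low gainers 20 mice with a low weight gain. Both had the same feeding, begun in young adulthood: a high-fat diet for 6 weeks, a low-fat diet for 2 weeks and the high-fat diet again for 6 weeks. In the study's experiment with this schedule, the low-fat diet of those 2 weeks was restricted. Each mouse then got less than it had eaten before the first high-fat diet. The RNA of a group was combined into 1 pool, and each pool was run on 4 arrays, called H1 to H4 for high gainers and L1 to L4 for low gainers. The arrays of a pool are thus technical replicates, and each p-value measures only the spread between arrays, not the spread between mice. In such tissue RNA, fewer neurons and less transcript per neuron cannot be told apart.

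Neurons hold up their long processes with microtubules and neurofilaments. Microtubules are polymers of alpha and beta tubulin that are stabilized and spaced by proteins such as MAP1B, MAP2 and tau, and they are the tracks of axonal transport. Neurofilaments are assembled from light, medium and heavy subunits and help set the calibre of axons. Stathmin 1 binds tubulin dimers and favours microtubule disassembly, and GAP-43 is a membrane protein of growing axon endings.

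Array L2 stood apart. Across probes its log2 intensity correlated with the other arrays at r between 0.228 and 0.253, where the other 7 correlated among themselves at r between 0.945 and 0.983. The cause was not tested, so a value on L2 cannot be read as a level of the low gainer pool. Fits that include L2 share this limit. The comparison therefore set H1 to H4 against L1, L3 and L4, and L2 is given apart. Among the 7 arrays the highest r, 0.983, was between the pools, for H3 and L1. The lowest, 0.945, was within the low gainer pool, for L1 and L4. Array L1 correlated at 0.976 with H4 and at 0.962 with L3. Of 20 hypothalamic neuron markers 15 had a probe and 11 had a value on all 7 arrays, among them the peptide precursors Oxt, Sst and Trh, while the transcription factor Nkx2-1 and the releasing hormone Ghrh had a value on 0 of them.

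Tuba1a, an alpha tubulin abundant in neurons, was higher in the high gainer estimate but did not pass the adjusted test. Its deposited intensity, a normalized signal on a linear scale, was 200.4, 226, 259 and 195 in high gainers (H1 to H4) and 250.3, 122 and 57.6 in low gainers (L1, L3 and L4), with 22.8 on L2. The pools overlapped because L1 lay within the high gainer range, whereas L3 and L4 lay below every high gainer array. Mean intensity was 220.3 ± 29.5 (SD, n = 4) in high gainers and 143 ± 98.2 (SD, n = 3) in low gainers. The fold, here and below high over low gainers, was 1.83 with a 95% interval from 1.20 to 2.80, and the adjusted p was 0.750 by limma over 11169 probes. A looser rule, an unadjusted p under 0.01 with at least a 1.5-fold difference, was met by Tuba1a alone among the members and by 0.457% of all probes in the same direction. Tuba1a no longer met it without further normalization, with median centring, cyclic loess, empty cells allowed, no trend, the brightest 50% of probes or all 8 arrays, by the methods' t-test, or without any 1 of H1, H2, H3, L3 and L4.

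The size of the Tuba1a difference depended on which low gainer arrays entered. Without L1 it was 2.52-fold and was called, with an adjusted p of 0.00377 by limma, in a fit that called 0.836% of 11247 probes higher. Without L4 it was 1.38-fold, with an adjusted p of 0.550 by limma. Leaving out 1 high gainer array kept the log2 difference between 0.82 and 0.93, and leaving out L3 gave 0.81. With all 8 arrays the log2 difference was 1.49 with an interval from -0.28 to 3.27, and cyclic loess on the same arrays gave 0.10. Of the 3 measured red cell markers, Hba-a1 made up most of their summed intensity. Among L1, L3 and L4 it was lowest on L1, with 17.0, 35.8 and 27.9. On the same arrays Hbq1a was also lowest on L1, with 0.847, 0.963 and 0.885, and Alas2 was highest there, with 0.614, 0.426 and 0.380. These arrays carried RNA of the same pool, so the spread among them is technical. The part of red cells in the Tuba1a difference between the pools was not tested.

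**Figure D1:**
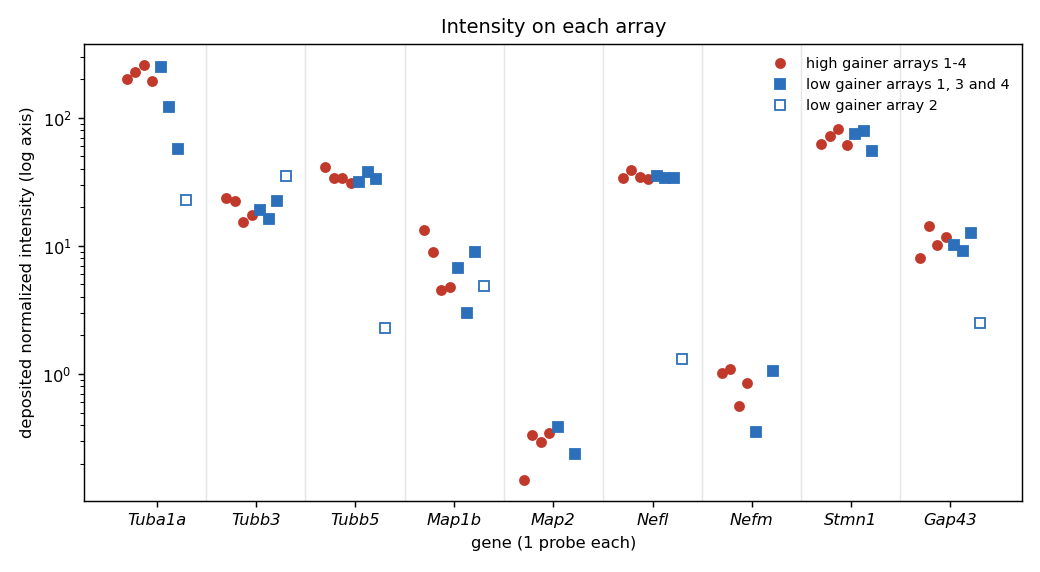
Deposited normalized intensity (log axis) of the 9 measured genes, 1 point per array with a value: high gainer arrays H1 to H4 as red circles, low gainer arrays L1, L3 and L4 as filled blue squares and L2 as open squares. Tuba1a spans 57.6 to 250.3 on L1, L3 and L4, while Nefl lies between 34.0 and 34.9 on the same 3 arrays.

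The beta tubulins gave differences close to 0. Tubb3, the beta tubulin used as a marker of neurons, had an intensity of 23.5, 22.5, 15.4 and 17.4 in high gainers (H1 to H4) and 18.9, 16.3 and 22.2 in low gainers (L1, L3 and L4). The low gainer values all lay inside the high gainer range, and the fold was 1.02 with an interval from 0.758 to 1.37. Tubb5, a beta tubulin of many cell types including neurons, had 41.1, 33.7, 33.9 and 31.1 in high gainers and 31.5, 37.6 and 33.4 in low gainers. Array H1 was the brightest and the low gainer values lay inside the high gainer range, with a fold of 1.05 and an interval from 0.831 to 1.32. On L2, Tubb3 had 35.1, above all 7 other arrays, and Tubb5 had 2.29, below all of them.

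Of the microtubule-associated proteins, Map1b varied among arrays of the same pool and Map2 was dim. Map1b, a protein of growing axons and of dendrites, had 13.2, 8.97, 4.49 and 4.80 in high gainers (H1 to H4) and 6.68, 2.97 and 8.99 in low gainers (L1, L3 and L4), with 4.86 on L2. Bright and dim arrays occurred in both pools, and the fold of 1.25 had an interval from 0.708 to 2.20. Map2, a protein of dendrites and cell bodies, had 0.149, 0.334, 0.296 and 0.348 in high gainers and 0.387 and 0.239 in low gainers (L1 and L4), and it had no value on L2 and L3. The low gainer value of L1 was the highest of all, and that of L4 lay within the high gainer range. A fit that allowed empty cells, and so used 2 low gainer arrays for this gene, put Map2 at -0.30 on the log2 scale, its interval running from -1.22 to 0.62.

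The neurofilament subunits did not separate the pools. Nefl, the light subunit, had 33.6, 39.0, 34.4 and 33.1 in high gainers (H1 to H4) and 34.9, 34.2 and 34.0 in low gainers (L1, L3 and L4), with 1.32 on L2. Apart from H2 and L2 the arrays lay close together, and the fold of 1.04 had an interval from 0.836 to 1.29. Nefm, the medium subunit, whose gene neighbours Nefl in RefSeq with 0 protein-coding genes between them, had 1.02, 1.10, 0.559 and 0.850 in high gainers and 0.354 and 1.05 in low gainers (L1 and L4). The value of L1 lay below every high gainer array and that of L4 within their range, and Nefm had no value on L2 and L3. Allowing empty cells, again with 2 low gainer arrays, the log2 difference of Nefm was 0.48 with an interval from -0.43 to 1.38.

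Stmn1 and Gap43 also overlapped between the pools. Stmn1 had 62.9, 72.2, 81.7 and 61.2 in high gainers (H1 to H4) and 74.1, 79.1 and 54.8 in low gainers (L1, L3 and L4), and no value on L2. The dimmest of the 7 arrays was L4 and the brightest H3, and the fold of 1.01 had an interval from 0.804 to 1.27. Gap43 had 8.02, 14.3, 10.1 and 11.6 in high gainers and 10.2, 9.20 and 12.5 in low gainers, with 2.52 on L2. The high gainer arrays held both the highest and the lowest of the 7 values, and the fold of 1.03 had an interval from 0.757 to 1.39.

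**Figure D2:**
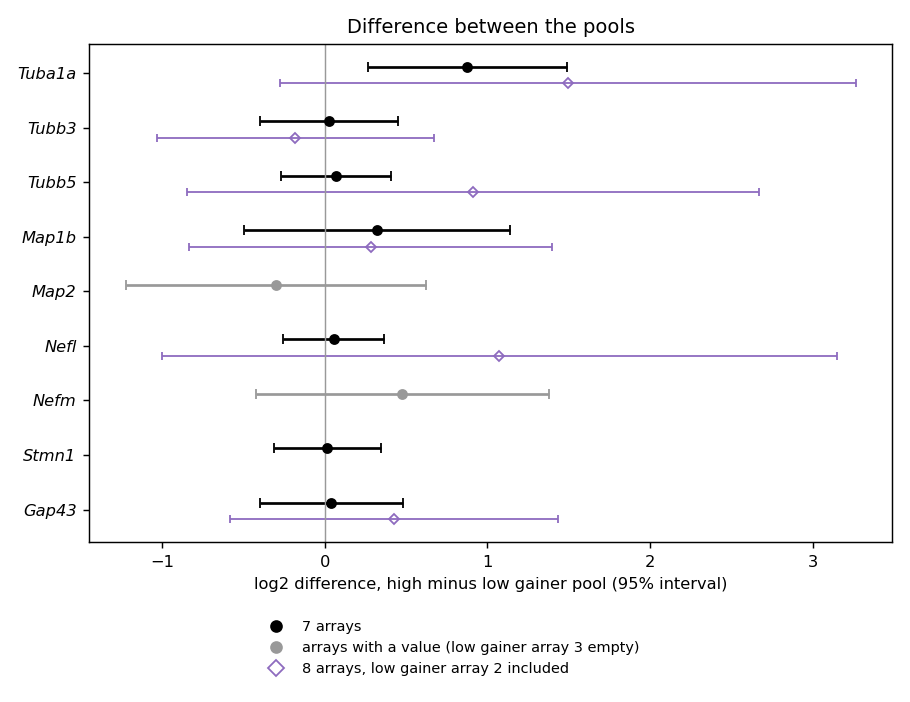
Log2 difference, high minus low gainers, with its 95% interval for each measured gene: black for the 7 arrays, grey for Map2 and Nefm on the arrays with a value, open diamonds for all 8 arrays. The Tuba1a interval for 7 arrays, 0.26 to 1.49, is the 1 black interval that leaves out 0.

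Over the members together, 0 of the 7 with a value on all 7 arrays were called, where limma called 0.0269% of all 11169 probes at an adjusted p of 0.05. Their adjusted p lay between 0.750 and 0.990 by limma. Tuba1a was the 1 member with an unadjusted p under 0.05, as were 724 of all probes. None of the 7 separated the pools without overlap, against 2.07% of all probes that were higher and 2.70% that were lower without overlap. The 7 log2 differences had a median of 0.05 and were all above 0, and those of all probes had a median of -0.0024 and were above 0 for 49.6%. For 5 of the 7 the estimate was 0.07 or less, and the sign of Tubb3, Tubb5, Map1b, Nefl, Stmn1 and Gap43 turned when single arrays were left out. With all 8 arrays, 0 of the 6 members with a value were called, against 0.0186% of 5375 probes. Their log2 difference was then 0.91 for Tubb5, 1.07 for Nefl, 0.43 for Gap43, 0.28 for Map1b and -0.18 for Tubb3, and each interval included 0.

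The probes of most members were among the brightest on 7 of the arrays. Percentiles here rank all probes with a value on the same array, and they depend on the probe as well as on the transcript. Tuba1a took places 15, 13, 12 and 16 from the top in high gainers (H1 to H4) and places 13, 57 and 129 in low gainers (L1, L3 and L4), with place 604 on L2. On the 7 arrays Stmn1 lay between percentiles 99.1 and 99.4, Nefl between 97.1 and 98.3, Tubb5 between 97.4 and 98.3, Tubb3 between 93.7 and 96.7 and Gap43 between 88.8 and 94.4. Map1b ranged more widely, between 72.8 on L3 and 93.2 on H1. The dim members Nefm and Map2 lay between 30.1 and 57.5 and between 4.11 and 32.5.

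Array L2 did not keep these ranks. The median percentile was taken over the 7 members with a value on all 7 arrays, which leaves out the dim Map2 and Nefm. It was between 97.5 and 98.0 in high gainers (H1 to H4) and between 97.1 and 98.0 in low gainers (L1, L3 and L4). On L2, where 6 of the 7 had a value, it was 75.4. Nefl was at percentile 55.7, Tubb5 at 67.7, Gap43 at 69.7 and Tuba1a at 95.6 on L2, each below its range on the other arrays. Map1b, at 81.0, lay within its range and Tubb3, at 97.4, above it.

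**Figure D3:**
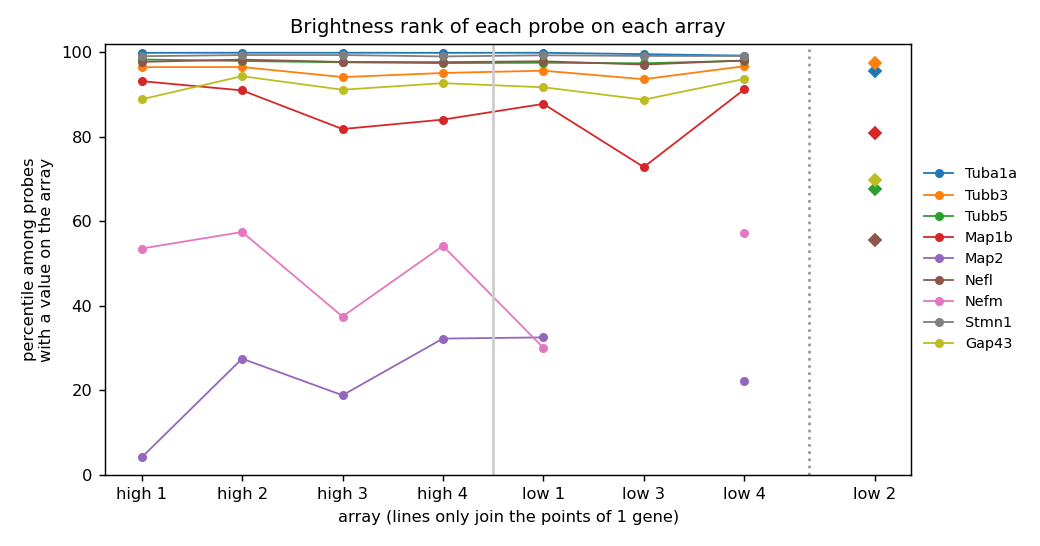
Percentile of each probe among all probes with a value on the array, for high gainer arrays H1 to H4, low gainer arrays L1, L3 and L4 and, to the right of the dotted line, L2. Nefl is at percentile 55.7 and Tubb5 at 67.7 on L2, while Tubb3 is at 97.4.

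Since the arrays of a pool carried the same RNA, the spread within a pool is technical, and it differed between members. After quantile normalization the SD of log2 intensity of Tuba1a was 0.12 in high gainers and 0.88 in low gainers, larger than that of 13.6% and 97.9% of all probes. Map1b had an SD of 0.75 in high gainers and 0.83 in low gainers, larger than that of 99.3% and 97.1% of probes. For all probes the median SD was 0.22 in high gainers and 0.33 in low gainers. Nefl, Tubb5 and Stmn1 had an SD between 0.14 and 0.22 in high gainers and of 0.11 each in low gainers. Gap43 and Tubb3 had SDs of 0.36 and 0.33 in high gainers and of 0.27 and 0.30 in low gainers.

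Single arrays did not move all members the same way. On L4, Tuba1a deviated by -1.31 from its own mean over the 7 arrays on the log2 scale, while Map1b deviated by 0.51, Tubb3 by 0.29 and Gap43 by 0.27. On L3, Map1b deviated by -1.10, Tuba1a by -0.63 and Tubb3 by -0.30, while Stmn1 deviated by 0.05. On H1, Map1b deviated by 1.02 and Gap43 by -0.41. The median deviation over the 7 members was 0.31, 0.24, -0.026 and -0.21 in high gainers (H1 to H4) and -0.0037, -0.26 and 0.059 in low gainers (L1, L3 and L4), and the pools overlapped.

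**Figure D4:**
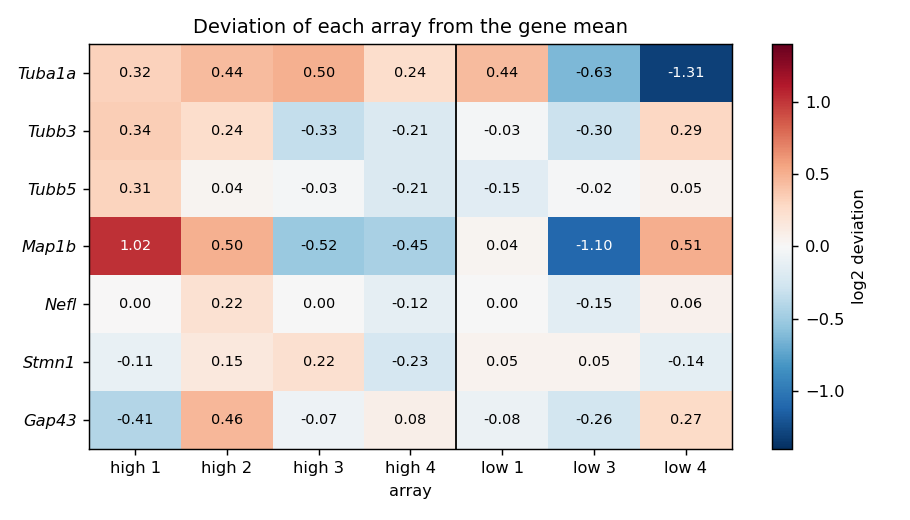
Log2 deviation of each array from the mean of the 7 arrays after quantile normalization, for the 7 genes with a value on all of them; rows are genes, columns are arrays, and colour runs from blue (below the mean) to red (above). Tuba1a is at -1.31 on L4, and Map1b is at 1.02 on H1 and -1.10 on L3.

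The other tubulins gave no call. Of 17 further tubulin genes 10 had a probe and 9 were tested, 7 above 0 and 2 below, none passed, and the median log2 difference was 0.18, or 0.022 without L3 and 0.57 with all 8 arrays. Tubb2b, a beta tubulin of neurons, had 40.6, 40.2, 52.2 and 42.3 in high gainers (H1 to H4) and 46.4, 42.7 and 28.4 in low gainers (L1, L3 and L4). Among the 7 arrays it was dimmest on L4, as Tuba1a was, but L3 lay within the high gainer range. Tubb4a, a beta tubulin of neurons and oligodendrocytes, had 18.03, 17.0, 13.4 and 12.4 in high gainers and 12.02, 10.6 and 18.8 in low gainers, so L4 was its brightest array. The fold was 1.17 for Tubb2b, 1.14 for Tubb4a, 1.17 for Tuba1c, 1.21 for Tuba8 and 1.52 for Tuba3b, with adjusted p between 0.820 and 0.917 by limma. Without L3 the log2 difference of Tuba3b was -0.069. Tuba4a, an alpha tubulin named after its values were seen, had 60.1, 43.8, 46.7 and 49.7 in high gainers and 44.4, 54.0 and 52.0 in low gainers, with L3 and L4 above L1. Tuba1b, Tubb2a and Tubb4b, near copies of the members, had no probe naming 1 gene. Tubulin coding sequences are closely alike, and how far a probe also binds such copies is uncertain here.

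The other neuronal filament genes and linkers also gave no call. Of 6 genes 5 had a probe and 4 were tested, 2 above 0 and 2 below, with a median log2 difference of 0.01. Nefh, the heavy neurofilament subunit, had 9.32, 8.81, 7.59 and 8.53 in high gainers (H1 to H4) and 7.71, 8.73 and 8.70 in low gainers (L1, L3 and L4). The low gainer values lay inside the high gainer range, with a fold of 1.03. Ina, which encodes alpha-internexin, a filament partner in central neurons, had 15.2, 15.6, 11.9 and 11.2 in high gainers and 13.4, 20.2 and 16.4 in low gainers. The brightest Ina values were those of L3 and L4, and the log2 difference was -0.29 with an interval from -0.69 to 0.10. Peripherin (Prph), a filament protein mostly of peripheral neurons, was at 0.990-fold and Dst, a linker of filaments and microtubules, at 1.06-fold.

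Proteins that fold, bind or phosphorylate these cytoskeletal proteins gave no call either. Of 30 tubulin folding and modifying enzymes 20 were tested, 7 above 0 and 13 below, with a median log2 difference of -0.098, or -0.027 without H3 and 0.13 with all 8 arrays. Tbcb, a tubulin folding cofactor, was at 0.789-fold and Cct7, a subunit of the chaperonin that folds tubulin and actin, at 0.820-fold. Another subunit, Cct6a, was the 1 of 20 genes of this list without overlap, where 2.70% of all probes were lower without overlap, at 0.902-fold, and is named after its values were seen. Of 36 other microtubule-associated proteins 17 were tested, 10 above 0 and 7 below, with a median of 0.029, and the stathmin relative Stmn3 was at 0.842-fold. Of 20 kinases and phosphatases of tau and filaments 10 were tested, 7 above 0 and 3 below, with a median of 0.061. It was 0.34 with all 8 arrays and -0.13 with cyclic loess on them. In that list Mapk10, a neuronal stress-activated kinase, was at 1.19-fold and Ppp2r1a, a phosphatase scaffold subunit, at 1.42-fold. Of 14 other growth cone and axon proteins 6 were tested, 5 above 0 and 1 below, with a median of 0.099, or 0.00014 without L3. Here Rtn1, a reticulon of neurons, was at 1.19-fold and Marcksl1, a relative of the actin regulator MARCKS, at 0.872-fold.

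Map7, which binds microtubules and recruits kinesin, was the 1 of 17 genes of its list without overlap over the 7 arrays, where 2.07% of all probes were higher without overlap. Its probe was dim. It had 0.367, 0.369, 0.490 and 0.343 in high gainers (H1 to H4) and 0.290, 0.125 and 0.152 in low gainers (L1, L3 and L4), with 3.73 on L2. Every high gainer array lay above L1, L3 and L4 and below L2. The fold over 7 arrays was 2.07, with an adjusted p of 0.750 by limma. A pseudocount of 0.180, above the values of L3 and L4, lowered the log2 difference of Map7 to 0.60, against 1.05 without it, and the probe was not among the brightest 50%. Without L1 the log2 difference of Map7 was 1.39, with an adjusted p of 0.0462 by limma, in the fit that called 0.836% of all probes higher. With all 8 arrays it was -0.16.

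**Figure D5:**
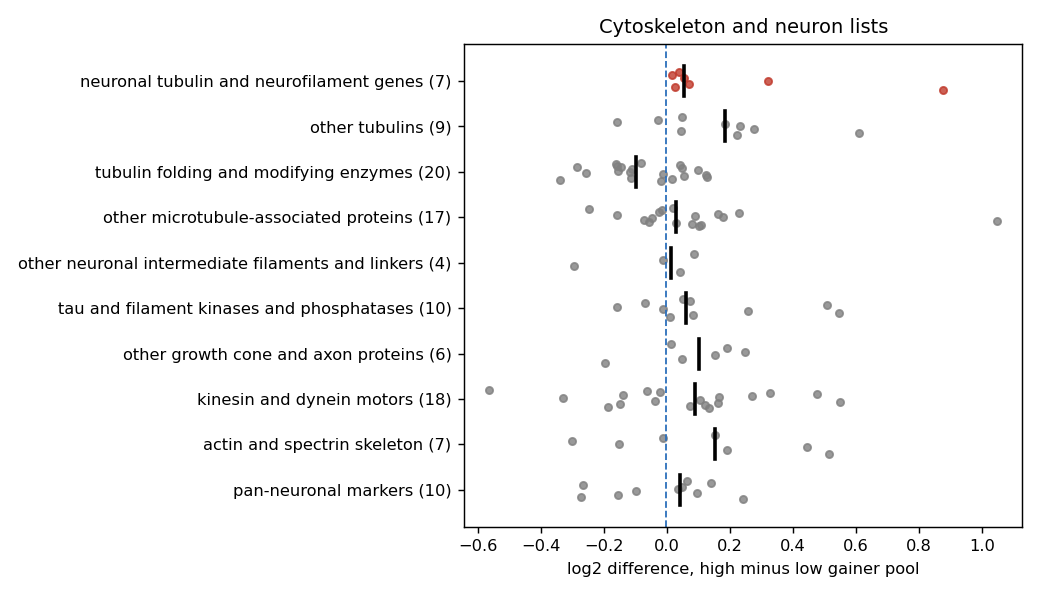
Log2 difference, high minus low gainers, of each tested gene (points, brightest probe of a gene) by list, with the number of genes tested in brackets; black bars are list medians and the dashed line is the median of all 11169 probes. Over the 7 arrays the members have a median of 0.05 and the tubulin folding and modifying enzymes one of -0.098.

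Neuron markers outside the cytoskeleton overlapped between the pools in their summed intensity. Of 18 pan-neuronal markers 14 had a probe and 10 were tested, 6 above 0 and 4 below, none passed, and the median log2 difference was 0.042. Their sum lay between 109.65 and 126 in high gainers and between 114 and 146 in low gainers. Of the 11 hypothalamic neuron markers tested 1 was above 0 and 10 below, none passed, and the median log2 difference was -0.23. Hcrt, named after its values were seen, was the 1 of 11 without overlap, at 0.705-fold, where 2.70% of all probes were lower without overlap. The sum of the 11 lay between 40.9 and 48.3 in high gainers and between 45.9 and 56.2 in low gainers. Its brightest gene was Sst, with a mean of 22.9 in high gainers and 24.5 in low gainers.

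Some markers of other cell types did separate the pools. All 3 tested anterior pituitary markers of 12, the hormones Gh, Prl and Cga, were called higher, with a sum between 8.30 and 10.4 in high gainers and between 0.837 and 1.38 in low gainers. Of the 10 with a probe, 5 more had a value on 1 to 6 of the 7 arrays and so were not tested, among them Pomc on 5. The last 2, Ghrhr and Pitx1, had no value on any of the 7 arrays. The 3 tested red cell markers of 8 were below 0 and none passed, with a sum between 8.94 and 14.8 in high gainers and between 18.4 and 37.2 in low gainers. Of the 3, 2 were lower without overlap, Hba-a1 at 0.455-fold and Hbq1a at 0.518-fold, against 2.70% of all probes. Of 9 tested oligodendrocyte markers of 15, 8 were above 0 and none passed, with a median log2 difference of 0.28. Their sum overlapped, between 61.1 and 95.3 in high gainers and between 20.3 and 63.2 in low gainers. Of the 9, 2 were higher without overlap, Mbp at 2.22-fold and Mag at 2.56-fold, against 2.07% of all probes. None passed among 5 astrocyte markers of 10 (median log2 difference 0.16), 6 microglia markers of 10 (0.074), 4 endothelial and pericyte markers of 11 (0.0085), 4 ependymal and tanycyte markers of 9 (0.015), 4 choroid plexus markers of 6 (-0.33), 5 cortex, striatum and thalamus markers of 11 (0.16) or 9 loading controls of 10 (0.027). Without overlap, 1 of the 4 choroid plexus markers was lower (Aqp1). Of the 5 cortex, striatum and thalamus markers 1 was lower (Neurod6) and 1 higher (Drd2), and 1 of the 9 loading controls was higher (Ywhaz). Over all probes these shares were 2.70% lower and 2.07% higher, and these genes are named after their values were seen. The part of these cell types in the values of the members was not tested.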

How the data were processed

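Per the study's methods and labels, the authors transcribed pooled hypothalamus RNA into digoxigenin-labelled cRNA, hybridized it to 1-colour Applied Biosystems mouse arrays with chemiluminescence detection, and applied quantile-quantile normalization. The deposited table holds normalized intensity on a linear scale, with empty cells for many probes; which step emptied them, and the genome build, are not given in the sources used here. Array medians ran between 0.714 and 1.05, and between 13657 and 16873 probes had a value on an array. Precision is limited by the number of arrays.

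The platform annotation named 1 gene for 14411 probes, several for 247 (not used for names) and none for 18354; 14402 of those with 1 gene matched RefSeq (GRCm38.p6), with 0 symbols changed. Groups came from sample titles. Log2 intensity was quantile normalized again over 11169 probes, those valued on all 7 arrays, and fitted with limma (version 3.58.1, R version 4.3.3; lmFit, eBayes with trend, no brightness filter), with Benjamini-Hochberg adjustment over all probes at 0.05. Allowing empty cells, 13335 probes with at least 3 high and 2 low gainer values were fitted. List counts took the brightest probe of a gene; up to 4 genes with the smallest p were named in each cytoskeletal list, and near copies of the tubulin members always. Alternatives were all 8 arrays, no further normalization, median centring, cyclic loess, the brightest 50% of probes, a pseudocount of 0.180, no trend, array weights, the array number as a block, single arrays left out, and the methods' t-test. The last was a pooled t-test adjusted as above, whereas the paper names an ANOVA at an unadjusted p of 0.01 with a 1.5-fold cutoff. At that threshold the t-test gave 9 probes higher and 10 lower. Cyclic loess on 8 arrays was added after seeing the data. The fit was tested on simulated data. Members and lists were chosen with earlier results of these data known.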

Additional observations from a re-analysis of the deposited data

Results flagged for a closer look

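Among the members and the other named genes, 54 groups of 4 arrays had all their values, and in 5 of them 1 array lay far from the other 3. All 5 were on L2. Nefl had an intensity of 1.32 there and Nefh 1.05, both far below L1, L3 and L4. Tuba1c had 3.67, Map7 3.73 and Prph 24.7 on L2, all above the other low gainer arrays, where Prph lay between 0.714 and 0.843. Chance alone marks about 1 such group in 20. Because L2 had already been set apart for its low correlation, these flags are no separate finding about the genes.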

How the results depend on the processing

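None of the 30 named genes was called by limma over 7 arrays or, for Map2 and Nefm, with empty cells allowed. Of their 523 values under the alternatives, 47 turned sign, 2 passed the threshold (Tuba1a and Map7 without L1) and 474 kept their sign and stayed uncalled, some at another size, such as Tuba1a at 0.10 with cyclic loess on 8 arrays against 0.88. Probes called higher at an adjusted p under 0.05 numbered 3, against 1 with all 8 arrays, 1 with the brightest 50% of probes and 1 with cyclic loess on 8 arrays. They numbered 0 by the methods' t-test with the same adjustment and between 2 and 94 with single arrays left out. Probes called lower numbered 0, against 1 with median centring, 1 with the pseudocount and between 0 and 77 with single arrays left out. Members called numbered between 0 and 1 in those fits. The counts of 94, 77 and 1 came without L1, and the cause was not tested. The median over members, 0.05 over 7 arrays, was 0.67 with all 8, 0.12 with cyclic loess on them, -0.011 with the replicate block and between -0.010 (without H2) and 0.18 (without L4) with single arrays left out. The median of the folding and modifying enzymes turned to 0.13 with all 8 arrays. On those arrays the median was 0.61 for other microtubule-associated proteins, 0.47 for growth cone and axon proteins and 0.34 for kinases and phosphatases. It was 0.42 for motors, 0.49 for the actin and spectrin skeleton and 0.47 for pan-neuronal markers.

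The array numbers are shared between the pools only as numbers: deviations of same-numbered arrays correlated at -0.20, 0.13 and -0.14 for numbers 1, 3 and 4. With the number as a replicate block, 5 probes were called higher and 4 lower, and the log2 difference was -0.051 for Tubb3, -0.011 for Nefl, -0.030 for Stmn1, -0.11 for Gap43 and 0.079 for Prph.

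Directions of the following log2 differences turned. With all 8 arrays and with cyclic loess on them, in this order, they were -0.18 and -0.89 for Tubb3, -0.21 and -0.20 for Tuba1c, 0.28 and 0.19 for Tbcb, 0.70 and 0.63 for Cct7, 0.76 and 0.034 for Stmn3 and 0.61 and 0.55 for Marcksl1. Map7 was at -0.16 with all 8 arrays, and Mapk10 at -0.18 and Ppp2r1a at -0.028 with cyclic loess on them. On 7 arrays Stmn1 was at -0.0026 with median centring, -0.0053 with cyclic loess and -0.028 with array weights. Prph was at 0.016 without further normalization, 0.0020 with median centring and 0.027 with empty cells allowed. With single arrays left out the ranges were -0.12 to 0.18 for Tubb3, -0.025 to 0.15 for Tubb5, -0.14 to 0.67 for Map1b, -0.010 to 0.11 for Nefl, -0.054 to 0.095 for Stmn1, -0.11 to 0.19 for Gap43, -0.069 to 1.04 for Tuba3b, -0.013 to 0.46 for Tubb4a, -0.48 to 0.00065 for Stmn3, -0.017 to 0.0995 for Nefh, -0.12 to 0.086 for Prph and -0.081 to 0.17 for Dst. Signal over background was not used here, so how far it limits the dim probes of Map2, Nefm and Map7 is not known.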

Other observations

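Motor proteins and the actin skeleton, partners of microtubules in transport and cell shape, gave no call between the pools. Of 27 kinesin and dynein genes 18 were tested, 10 above 0 and 8 below, none passed by limma, and the median log2 difference was 0.088, or -0.076 without L1 and 0.29 without L4. Dctn6, a subunit of the dynactin complex that links dynein to cargo, had an intensity of 1.94, 3.13, 1.89 and 2.52 in high gainers (H1 to H4) and 2.87, 4.05 and 3.60 in low gainers (L1, L3 and L4). Array H2 lay within the low gainer range and the other 3 high gainer arrays below it. The log2 difference of Dctn6 was -0.56 with an interval from -1.02 to -0.11 and an adjusted p of 0.750 by limma. Kif21a, a kinesin of neurons, was at 1.46-fold with an adjusted p of 0.779 by limma, and its log2 difference of 0.55 was 0.17 without L3 and 0.86 without L1. Of 12 actin and spectrin genes 7 were tested, 4 above 0 and 3 below, none passed, and the median was 0.15, or 0.020 without L3. Actb, beta actin, had 19.9, 34.2, 23.2 and 25.6 in high gainers and 26.5, 9.28 and 22.5 in low gainers. Among the 7 arrays L3 was its dimmest, and the log2 difference of 0.51 was 0.020 without L3. Sptbn1, a spectrin, was at 1.36-fold and was also dimmest on L3 among the 7 arrays, and its log2 difference of 0.44 was 0.17 without L3.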
